A study of Mus musculus with 36 samples.

Results

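Ctcf and the genes of the cohesin complex were followed in cultured mouse cortical neurons after stimulation. The 10 genes were taken by name: Ctcf, Rad21, Smc1a, Smc3, Stag1, Stag2, Nipbl, Wapl, Pds5a and Pds5b. Each matched 1 of the 26709 genes of the RNA table. Neurons came from CD-1 mouse embryos at embryonic day 15, with the cortices of all embryos dissociated together, and were grown for 7 days in vitro. All neurons were silenced for 2 h with 100 µM AP-5, which blocks NMDA receptors, and 1 µM TTX, which blocks sodium channels. They then received 10 ng/ml BDNF, the neurotrophin that acts through the TrkB receptor, or 55 mM KCl, which depolarises the membrane, for 1, 6 or 10 h. The controls had both blockers throughout, for 3, 8 or 12 h in all. The stimulated samples are listed with 2 h of blockers in all. In comparisons with controls, the stimulus and a shorter time in the blockers therefore cannot be told apart. RNA-seq and ATAC-seq were each done on 18 samples, 2 for each of the 9 groups. Because every sample was bulk RNA or chromatin of a whole culture, fewer cells of a type and less RNA per cell cannot be told apart, and because nothing in the labels ties the 2 samples of a group to separate animals, p-values measure the spread between these samples.

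Cohesin is a ring that holds DNA and pulls it into loops. Smc1a and Smc3 are the long ATPase arms, the kleisin Rad21 closes the ring, and Stag1 or Stag2 sits on Rad21 as alternative further subunits. Nipbl loads cohesin and drives loop extrusion, Wapl opens the ring and releases it, and Pds5a and Pds5b bind Rad21 and take part both in release and in holding cohesin on DNA. The zinc-finger protein CTCF binds a defined sequence and stops the extruding ring, which fixes the loop anchors. In neurons, which no longer divide, cohesin acts on genome folding rather than on holding sister chromatids, and loss of function in several of these genes, among them Nipbl, Smc1a and Ctcf, is known from neurodevelopmental disorders.

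Promoter sequences are shown for the 4 members whose promoter stretch lay inside an ATAC peak that changed with a stimulus. Each runs from 250 bases before to 50 bases after the RefSeq start on GRCm38.p6, the assembly known as mm10, 5′ to 3′ on the strand of the gene. Pds5b lies at chr5:150673577-150673876 on the plus strand, Pds5a at chr5:65698187-65698486 on the minus strand, Smc1a at chrX:152016178-152016477 on the plus strand and Stag1 at chr9:100643198-100643497 on the plus strand. Capitals mark matches on either strand to 5 motifs, namely the full cAMP response element TGACGTCA, the AP-1 site TGANTCA, the EGR site GCGNGGGCG, the YY1 letters AANATGGC and the CTCF core given further on.
Pds5b: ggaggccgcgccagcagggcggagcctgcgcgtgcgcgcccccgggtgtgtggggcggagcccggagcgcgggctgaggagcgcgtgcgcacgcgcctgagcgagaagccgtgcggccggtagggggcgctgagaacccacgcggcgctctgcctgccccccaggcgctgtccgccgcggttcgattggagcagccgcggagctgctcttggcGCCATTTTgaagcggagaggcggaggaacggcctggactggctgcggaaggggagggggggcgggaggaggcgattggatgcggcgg
Pds5a: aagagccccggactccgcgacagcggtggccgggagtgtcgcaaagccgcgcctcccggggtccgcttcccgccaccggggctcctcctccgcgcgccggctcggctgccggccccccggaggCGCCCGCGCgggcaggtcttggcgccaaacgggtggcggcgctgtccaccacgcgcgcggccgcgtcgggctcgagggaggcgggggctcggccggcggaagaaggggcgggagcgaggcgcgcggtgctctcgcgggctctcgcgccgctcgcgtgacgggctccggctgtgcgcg
Smc1a: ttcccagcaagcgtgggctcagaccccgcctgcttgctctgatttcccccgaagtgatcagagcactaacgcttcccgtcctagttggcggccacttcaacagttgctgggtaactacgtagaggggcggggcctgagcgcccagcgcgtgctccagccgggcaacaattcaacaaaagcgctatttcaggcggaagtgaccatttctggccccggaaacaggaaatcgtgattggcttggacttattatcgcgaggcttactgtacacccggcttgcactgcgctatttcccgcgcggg
Stag1: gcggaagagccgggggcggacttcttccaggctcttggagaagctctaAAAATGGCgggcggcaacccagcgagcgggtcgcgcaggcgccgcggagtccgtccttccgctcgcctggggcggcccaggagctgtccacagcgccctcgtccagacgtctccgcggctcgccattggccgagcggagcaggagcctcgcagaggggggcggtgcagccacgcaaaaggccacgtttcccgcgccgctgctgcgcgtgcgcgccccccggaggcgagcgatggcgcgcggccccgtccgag

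RefSeq sequences were matched for 7 of the 10 members, and Rad21, Nipbl and Stag2 are named only. The 7 stretches held 58.3 to 80.3% G and C, against a median of 52.7% over 32851 promoters of the same length. They held 23 CpG pairs in Smc1a to 55 in Pds5a, against a median of 7. The EGR letters, read by the activity-induced Egr factors, were found in Pds5a, 127 bases before the start (position -127), and in Ctcf (position -236), and are present in 5.55% of all promoters. The YY1 letters, which were set after these promoters had been read, were found in Pds5b (position -37), Stag1 (position -202), Smc3 (position 1) and Ctcf (position 11), and are present in 6.05% of all promoters. None of the 7 held the full cAMP response element, the AP-1 site or the CTCF core (1.79, 7.81 and 2.43% of all promoters). All 7 held the SP/KLF box GGGCGG, as did 35.7% of all promoters. These matches describe letters only.

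The RNA libraries held 8.51 to 36.7 M counted reads (median 11.6), with control 1 h sample A the deepest, and the ATAC libraries held 1.24 to 6.24 M (median 3.55). The 2 RNA libraries of KCl 6 h differed most from each other, with a chi-square per degree of freedom of 39.6 against 2.44 to 10.4 in the other 8 groups. The 5 stimulation genes checked (Fos, Arc, Npas4, Egr1 and Nr4a1) rose at 1 h with both stimuli. Arc, a synaptic early gene, had the largest fold change, 7.56 ± 0.15 (log2, SE) at BDNF 1 h, and Fos, an AP-1 subunit, reached 7.30 ± 0.15 at KCl 1 h. All 9 neuron markers passed the filter on low values, and their summed normalised read count was 49810.4 to 55633 in the 6 controls. Markers of other cells were present, with summed counts in the controls of 10033 to 12928 for astrocytes, 5713 to 6194 for the oligodendrocyte lineage, 3671 to 4409 for fibroblasts and mural cells, 243 to 1196 for endothelium and 86.9 to 109.7 for microglia. The endothelial sum was almost all Kdr (control mean 651), with control means of 9.90 for Pecam1, 4.47 for Flt1 and 0.16 for Cldn5. The defining endothelial gene Cldn5 was at most 6.54 in any library and the astrocyte gene S100b at most 11.1. Dividing cells were also present, since the 10 proliferation genes summed to 7004 to 10499.7 in the controls.

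In the unstimulated cultures, which held other cells besides neurons, the kleisin had the highest mRNA level of the family. Levels per exon length and library size (RPKM), computed here from the recovered reads, averaged 56.3 ± 4.5 (SD, n = 6) for Rad21. Ctcf followed at 24.4 ± 1.0 and Smc1a at 21.4 ± 1.5, and the arm Smc3 stood at 17.9 ± 0.51. Pds5b (13.5 ± 0.90), Stag2 (12.2 ± 0.78), Wapl (11.4 ± 0.95) and Nipbl (11.3 ± 0.64) were neighbours whose ranges over the 6 controls overlapped. Stag1 was at 5.57 ± 0.15 and Pds5a was lowest at 2.40 ± 0.21. The length used was that of all annotated exons of a gene, 4232 bp for Rad21, 11781 bp for Stag1 and 19335 bp for Pds5a. Exons that are annotated but not used lower a level, so the ranking depends on the annotation. The ranges of Rad21, Smc3, Stag1 and Pds5a overlapped with that of no neighbour in this order, while those of Ctcf (22.6 to 25.3) and Smc1a (19.1 to 23.0) overlapped each other. No member differed between the controls of different times, where 0 of all genes passed at 6 h or 10 h against 1 h (limma, 164 and 181 genes at an unadjusted p below 0.05, 0 of them members).

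**Figure D1:**
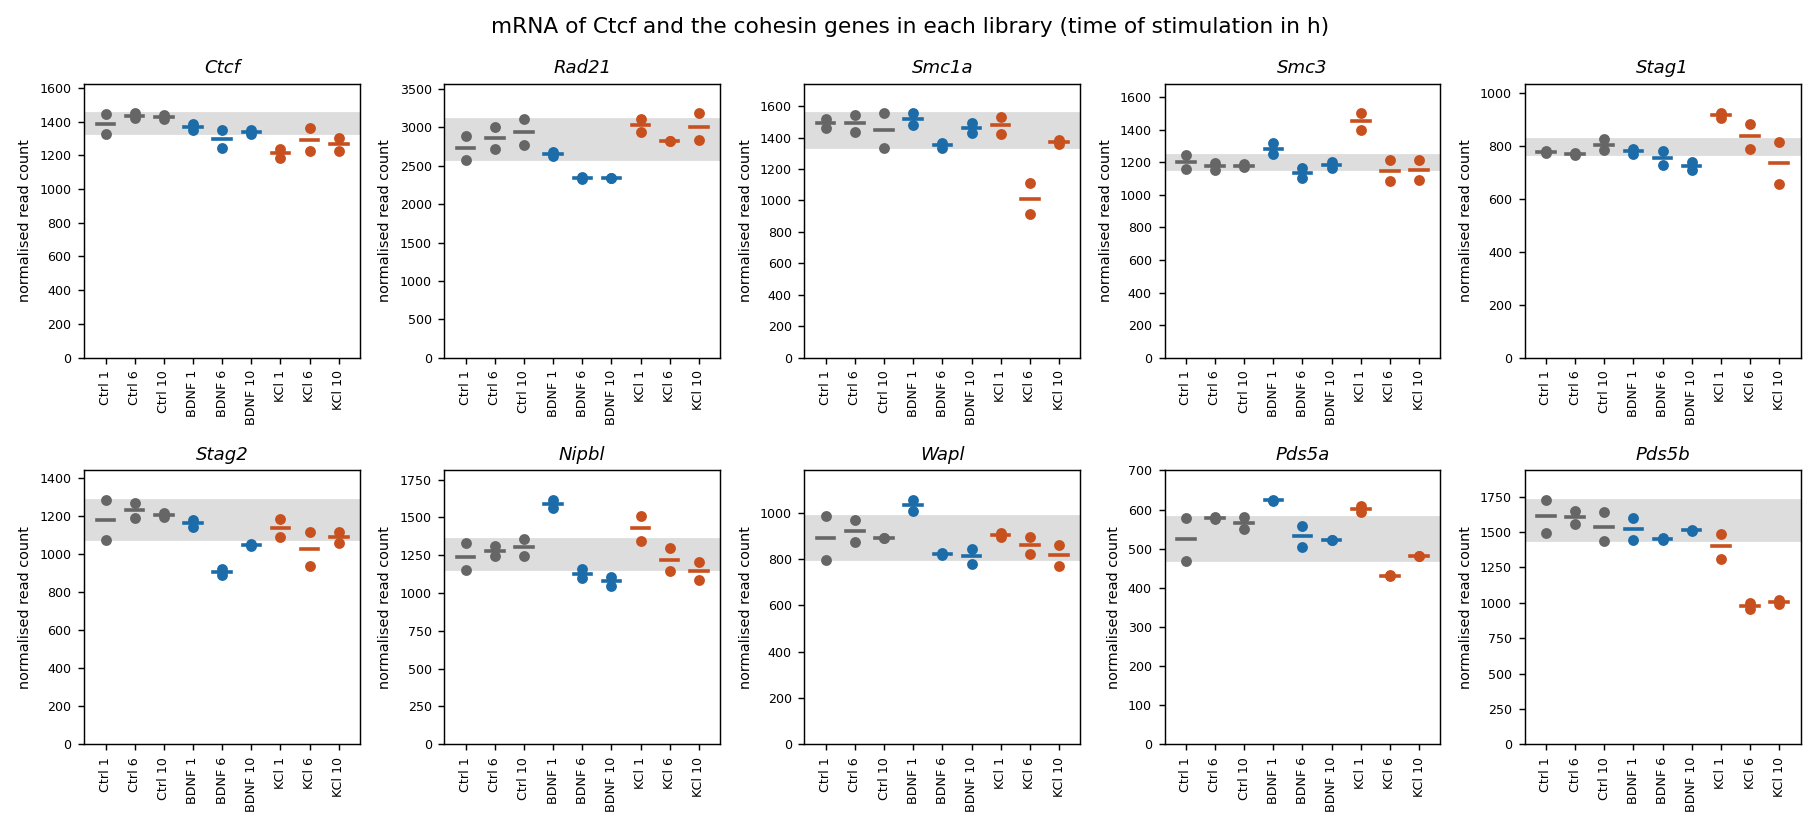
Normalised read count (y axis, linear from 0) of the 10 genes in each of the 18 RNA libraries by group (x axis, hours of stimulation). Points are libraries, bars are group means of 2 and the grey band is the range of the 6 controls; Pds5b at KCl 6 h and 10 h lies between 956 and 1018, under all 6 controls.

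The members moved by small amounts. Each gene's 9 group means on the log2 scale spanned 0.72 for Pds5b, 0.59 for Smc1a, 0.56 for Nipbl, 0.53 for Pds5a, 0.44 for Stag2, 0.37 for Rad21, 0.36 for Smc3, 0.35 for Wapl, 0.34 for Stag1 and 0.24 for Ctcf. Of the 16209 genes tested, 40.2% had a smaller span than Pds5b and 1.28% had a smaller span than Ctcf, the steadiest of the 10. These spans include sampling noise, which is larger for genes with few reads.

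The largest change was in Pds5b, at chr5:150673739-150810690 on mm10. It was 1437 to 1728 normalised counts in the 6 controls (median 1599). It was 1488 and 1309.8 after 1 h of KCl, 956 and 999 after 6 h, and 1018 and 992 after 10 h. With BDNF the 1 h pair was 1446 and 1599.7, the 6 h pair 1447 and 1457 and the 10 h pair 1508 and 1515. All 4 late KCl libraries were below every control and every BDNF library, and the BDNF libraries overlapped the controls. Pds5b fell by 0.69 on the log2 scale at KCl 6 h (SE 0.07, 38.2% lower, limma adjusted p 3.0e-08) and by 0.65 at KCl 10 h (SE 0.07, 36.4% lower, adjusted p 1.5e-07). It fell by 0.18 at KCl 1 h (adjusted p 0.041), a call that rested on KCl 1 h sample B, without which the difference was -0.09 (adjusted p 0.47). With BDNF the differences from controls were -0.06, -0.12 and -0.06 and none passed. The direct comparison gave 0.57 ± 0.09 (SE) higher with BDNF than with KCl at 6 h (adjusted p 1.1e-05) and 0.59 ± 0.09 at 10 h (adjusted p 1.5e-05).

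Its relative Pds5a (chr5:65605721-65698273) had the lowest values of the family and shared part of this course. Controls were 468 to 582 (median 577), KCl 1 h was 594 and 608, KCl 6 h was 429.6 and 432, and KCl 10 h was 480.4 and 482. The KCl 1 h pair lay above all controls, with a difference of 0.12 that did not pass (adjusted p 0.23). Both KCl 6 h libraries lay below all 6 controls, and those of 10 h lay above only the lowest control, control 1 h sample A. Pds5a fell by 0.36 at KCl 6 h (SE 0.08, adjusted p 0.00044) and by 0.20 at KCl 10 h (SE 0.08, adjusted p 0.038), the latter not without KCl 10 h sample A (adjusted p 0.14) or B (adjusted p 0.14). At 1 h it was 622 and 625.1 with BDNF, above every control, with a difference of 0.17 ± 0.08 that did not pass (adjusted p 0.105). It passed against the controls of the same time alone (0.26, adjusted p 0.066) and without control 1 h sample B, control 6 h sample B or control 10 h sample A (0.18 in each, adjusted p 0.093 to 0.09966). BDNF exceeded KCl at 6 h by 0.30 ± 0.10 (adjusted p 0.013), and by 0.23 (adjusted p 0.14) without BDNF 6 h sample A.

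Smc1a (chrX:152016428-152062694), one of the 2 ATPase arms, showed a dip that was limited in time. Controls were 1335 to 1556 (median 1492). The libraries were 1424 and 1532 at KCl 1 h, 1114 and 911 at KCl 6 h, and 1386 and 1359 at KCl 10 h. Only the 6 h pair lay below the controls. Smc1a fell by 0.55 at KCl 6 h (SE 0.07, 31.7% lower, adjusted p 1.2e-06). It was then 0.45 ± 0.09 higher at KCl 10 h than at KCl 6 h (adjusted p 0.0021), and at KCl 10 h its difference from controls was -0.10 (adjusted p 0.25). BDNF libraries were 1337 to 1557 at all times, and BDNF exceeded KCl at 6 h by 0.42 ± 0.09 (adjusted p 0.00041). Smc3 (chr19:53600398-53645833), the other arm, was not called at KCl 6 h. Controls of Smc3 were 1154 to 1245 (median 1179), KCl 1 h was 1400.2 and 1504, KCl 6 h was 1214 and 1085, and KCl 10 h was 1090.3 and 1213. Smc3 rose by 0.29 ± 0.06 at KCl 1 h (adjusted p 0.00063), where both libraries lay above all controls, and was 0.34 ± 0.08 lower at KCl 6 h than at KCl 1 h (adjusted p 0.00097). At BDNF 1 h it was 1319.9 and 1252, also above the controls, with a difference of 0.12 ± 0.06 that did not pass (adjusted p 0.17).

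Rad21 (chr15:51962240-51991747), the kleisin, moved with BDNF. Controls were 2575 to 3106 (median 2835). The BDNF pair at 1 h was 2682 and 2622, that at 6 h 2334 and 2358 and that at 10 h 2339.7 and 2344, so that the 4 late ones lay below every control. KCl libraries were 2818 to 3189 at all times, within or just above the controls. Rad21 fell by 0.28 at BDNF 6 h (SE 0.07, adjusted p 0.0024) and by 0.28 at BDNF 10 h (SE 0.07, adjusted p 0.0027). Differences from controls with KCl were 0.09, -0.01 and 0.08 and none passed. The counts of the 10 proliferation genes summed to 6635 to 7156 at BDNF 6 h and 6618 to 7040 at BDNF 10 h, around the lowest control (7004), and the astrocyte markers to 9761 to 10063 and 10011 to 10031, around their lowest control (10033). The part of these cells in the BDNF falls of Rad21 and of Stag2 was not tested. BDNF against KCl gave -0.19 ± 0.08 at 1 h (adjusted p 0.072), -0.27 ± 0.08 at 6 h (adjusted p 0.0092) and -0.36 ± 0.08 at 10 h (adjusted p 0.0013).

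Of the alternative subunits, Stag2 (chrX:42149317-42277185) was 1075 to 1285 in controls (median 1205), 890.0 and 919 for the BDNF 6 h pair and 1043 and 1050.4 for the BDNF 10 h pair. All 4 of these lay below the controls. Stag2 fell by 0.41 at BDNF 6 h (SE 0.07, 24.8% lower, adjusted p 0.00015) and by 0.20 at BDNF 10 h (SE 0.07, adjusted p 0.040), the latter not without BDNF 10 h sample A (adjusted p 0.18) or B (adjusted p 0.17). The KCl pairs were 1185 and 1091 (1 h), 936 and 1112 (6 h) and 1057 and 1117 (10 h), and Stag2 fell by 0.24 at 6 h (SE 0.07, adjusted p 0.0078). That fall rested on KCl 6 h sample A, without which it was -0.11 (adjusted p 0.27). The difference between BDNF and KCl at 6 h did not pass for Stag2 (-0.17 ± 0.09, adjusted p 0.11), but was -0.30 (adjusted p 0.013) without KCl 6 h sample A. Stag1 (chr9:100597798-100959375) was 767 to 825 in controls (median 778) and 906 and 925 at KCl 1 h, above all controls, a rise of 0.22 ± 0.07 (adjusted p 0.016). BDNF minus KCl at 6 h was -0.15 for Stag1 and did not pass, but was -0.23 (adjusted p 0.078) without KCl 6 h sample A. In the other 5 stimulated groups Stag1 was 656 to 883 and passed in none, except at KCl 10 h when sample B was left out (-0.26, adjusted p 0.021).

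The loader and the release factor both rose at BDNF 1 h. The direct comparison of BDNF with KCl at 1 h passed for neither of them (limma). It gave 0.16 ± 0.09 for Nipbl (adjusted p 0.18) and 0.19 ± 0.09 for Wapl (adjusted p 0.12). Nipbl (chr15:8290617-8444463) was 1151 to 1359 in controls (median 1278) and 1616 and 1562 at BDNF 1 h, the highest values of the gene. The BDNF 6 h pair was 1157 and 1099.7 and the BDNF 10 h pair 1109 and 1044. Nipbl rose by 0.32 ± 0.07 at BDNF 1 h (24.9% higher, adjusted p 0.0015) and fell by 0.24 at BDNF 10 h (SE 0.07, adjusted p 0.014), with a drop of 0.49 ± 0.09 from 1 h to 6 h (adjusted p 0.00024). The 10 h fall did not pass without BDNF 10 h sample B (-0.20, adjusted p 0.18). The KCl pairs were 1345 and 1511 (1 h), 1295 and 1147 (6 h) and 1084 and 1202 (10 h). The remaining 3 calls were close to the threshold, -0.17 at BDNF 6 h (adjusted p 0.068), 0.16 at KCl 1 h (adjusted p 0.066) and -0.16 at KCl 10 h (adjusted p 0.080). Each was lost without 1 or another library, and at KCl 1 h without sample B the value was 0.08 (adjusted p 0.52), at KCl 10 h without sample A -0.08 (adjusted p 0.53). Wapl (chr14:34673928-34747983) was 796 to 987 in controls (median 891) and 1057 and 1008 at BDNF 1 h, above all of them, a rise of 0.20 ± 0.08 (adjusted p 0.048). The rise did not pass without BDNF 1 h sample A (adjusted p 0.31) or B (0.23, adjusted p 0.12). In the other stimulated groups Wapl was 772 to 913 and passed in none, although without control 1 h sample A, its lowest control, it was -0.16 at BDNF 6 h (adjusted p 0.076), -0.18 at BDNF 10 h (adjusted p 0.050) and -0.18 at KCl 10 h (adjusted p 0.044), and from 1 h to 6 h of BDNF it fell by 0.33 (SE 0.09, adjusted p 0.012).

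Ctcf itself (chr8:105636568-105682922) moved least. Controls were 1324 to 1451 (median 1429). The KCl pairs were 1238 and 1185 (1 h), 1359 and 1225 (6 h) and 1226 and 1305 (10 h), so that the 1 h and 10 h pairs lay below all controls. Ctcf fell by 0.22 at KCl 1 h (SE 0.06, 14.4% lower, adjusted p 0.0045), by 0.13 at KCl 6 h (SE 0.06, adjusted p 0.066) and by 0.16 at KCl 10 h (SE 0.06, adjusted p 0.032). The 6 h call was lost without KCl 6 h sample B (-0.06, adjusted p 0.54) and the 10 h call without KCl 10 h sample A (-0.12, adjusted p 0.27). With BDNF it was 1241 to 1388 and the differences of -0.05, -0.13 and -0.08 did not pass, although the 6 h one passed under TMM scaling (-0.14, adjusted p 0.076), with edgeR on whole reads (-0.14, adjusted p 0.080) and without control 1 h sample A, the lowest control (-0.15, adjusted p 0.059). Several of these genes overlap others in the GENCODE M21 annotation, for Ctcf the opposite-strand gene Agrp, and since the strand setting of the counting is not given in the sources used here, such reads cannot be told apart.

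**Figure D2:**
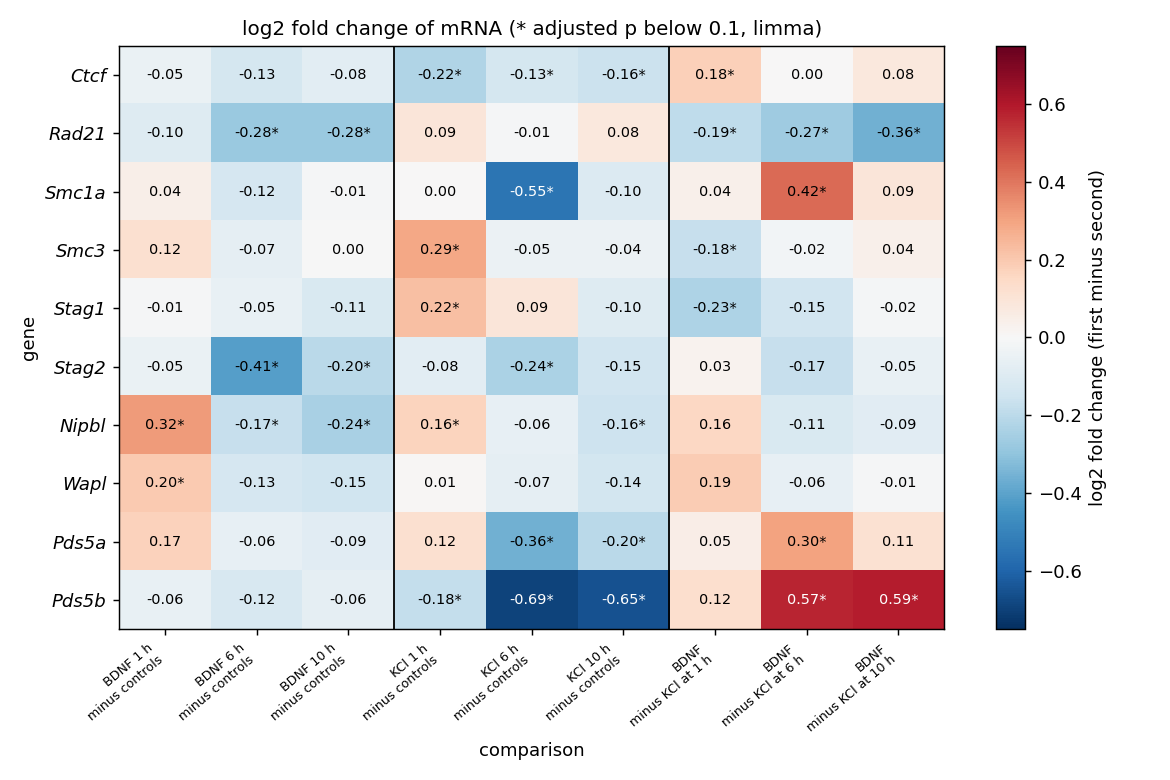
Heat map of the log2 fold change (colour scale and printed value) of the 10 genes (rows) in the 6 comparisons with controls and the 3 of BDNF with KCl (columns); an asterisk marks an adjusted p below 0.1. The deepest colours are the falls of Pds5b at KCl 6 h (-0.69) and 10 h (-0.65).

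The counts over the 10 genes against controls are given beside the share of all genes called in each direction. At BDNF 1 h 2 rose and 0 fell, where 21.3% of all genes rose and 19.0% fell. At BDNF 6 h 0 rose and 3 fell (all genes 22.1% and 21.1%), and at BDNF 10 h 0 rose and 3 fell (21.1% and 19.5%). At KCl 1 h 3 rose and 2 fell (26.5% and 28.2%), at KCl 6 h 0 rose and 5 fell (33.4% and 33.1%), and at KCl 10 h 0 rose and 4 fell (29.0% and 28.2%). At 6 h and 10 h every call of a member was a fall, and Smc3, Stag1 and Wapl were not called against controls at these times. The median log2 fold change of the 10 was 0.02, -0.13 and -0.10 with BDNF and 0.05, -0.10 and -0.14 with KCl, and that of all genes was within 0.01 of 0 in each. These comparisons share their 6 control samples. Against the controls of the same time alone, some of the calls against controls did not pass (limma). Nipbl did not pass at BDNF 6 h (adjusted p 0.17), KCl 1 h (adjusted p 0.1013) or KCl 10 h (adjusted p 0.12). Wapl did not at BDNF 1 h (adjusted p 0.13), Stag2 at BDNF 10 h (adjusted p 0.15) or Ctcf at KCl 6 h (adjusted p 0.12). Between stimuli, 4 members were called at 1 h, 4 at 6 h and 2 at 10 h, where 42.8%, 57.3% and 45.0% of all genes were, in either direction. The 4 at 1 h (Ctcf 0.18, Rad21 -0.19, Smc3 -0.18 and Stag1 -0.23, BDNF minus KCl) depended on single libraries. Each call was lost without BDNF 1 h sample A and also without sample B. Without KCl 1 h sample B, Ctcf (0.14), Smc3 (-0.12) and Stag1 (-0.22) were lost. Without KCl 1 h sample A, Rad21 (-0.15) and Stag1 (-0.25) were lost. Between times, 5 members fell and 0 rose from 1 h to 6 h of BDNF (17.7% and 15.8% of all genes), and 0 were called by limma from 6 h to 10 h (0.216% of all genes in either direction, 1 member at an unadjusted p below 0.05). With KCl 5 fell and 0 rose from 1 h to 6 h (28.7% and 30.9% of all genes), and 1, Smc1a, rose and 0 fell from 6 h to 10 h (12.9% and 9.66%). Among these KCl comparisons, the fall of Nipbl from 1 h to 6 h did not pass without KCl 6 h sample B (adjusted p 0.28), where that of Stag2 did (adjusted p 0.020), and without KCl 6 h sample A Stag1 passed from 6 h to 10 h (-0.27, adjusted p 0.063).

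Because paired factors may matter by their balance, 3 ratios were compared over all times with exact two-sided permutation tests of the log2 ratio, 6 samples against 6, in which no p can fall below 0.0022. The 9 p-values were adjusted together. Pds5a to Pds5b was 0.35 ± 0.03 (SD, n = 6) in controls. It was 0.399 and 0.46 at KCl 1 h, 0.45 and 0.43 at KCl 6 h and 0.47 and 0.49 at KCl 10 h, higher than 5 of 6 controls in every KCl library. The log2 ratio was 0.36 higher with KCl than in controls (exact permutation p 0.0043, adjusted 0.019). It was 0.27 lower with BDNF than with KCl (exact permutation p 0.0043, adjusted 0.019). These tests treat libraries of different times as interchangeable. The early BDNF libraries (1 h, 0.430 and 0.391) were above the control mean and overlapped the KCl pair of that time. The later BDNF libraries ranged from 0.344 to 0.386, below every KCl library. The stimuli were therefore separated in this ratio only after 1 h. Stag2 to Stag1 was 1.54 ± 0.11 in controls, 1.20 ± 0.09 (n = 2) at BDNF 6 h, 1.24 ± 0.09 at KCl 1 h and 1.22 ± 0.05 at KCl 6 h, and was back at 1.45 and 1.49 at 10 h of BDNF and KCl. Over all times the differences from controls were -0.16 with BDNF (exact permutation p 0.056, adjusted 0.13) and -0.23 with KCl (exact permutation p 0.022, adjusted 0.065), so neither passed 0.05 after adjustment. Nipbl to Wapl was 1.42 ± 0.09 in controls and 1.33 to 1.58 in the stimulated group means, and its 3 differences were between -0.05 and 0.05 (adjusted exact permutation p 0.55 to 0.93).

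**Figure D3:**
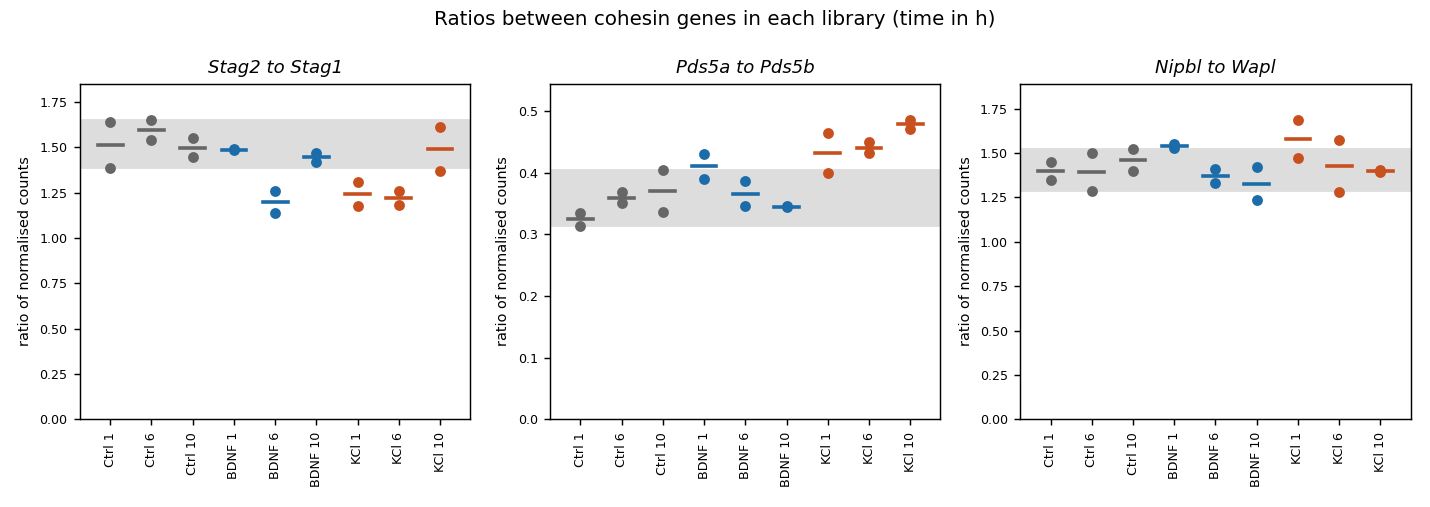
Ratio of normalised read counts (y axis, linear from 0) for 3 pairs of genes in each RNA library by group (x axis, hours of stimulation), with group means as bars and the range of the 6 controls in grey. All 6 KCl libraries lie at 0.399 or above for Pds5a to Pds5b, and the Stag2 to Stag1 ratio is lowest at BDNF 6 h (1.20).

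Across the 9 group means, Nipbl and Wapl had the most similar course (Pearson r 0.95), followed by Smc1a and Pds5a (0.82) and Smc1a and Pds5b (0.78), and Ctcf and Smc3 the least (-0.38). Outside the gene lists, the gene nearest in course was F8 for Pds5b (r 0.995), Rad21 had Gpr161 (0.985), Ctcf had Prtg (0.983), Stag2 had Gpr137c (0.983), Smc3 had Efnb1 (0.982) and Smc1a had Tmem269 (0.978). Wapl had Zfp664 (0.973), Nipbl had Gm5620 (0.971), Pds5a had Npepl1 (0.966) and Stag1 had Cdkn2aip (0.956). The mean course of the 10 was nearest to Ddah1 (0.976), Pea15a (0.976) and Rrm1 (0.975). All points share libraries, and these are the highest of the r of every other tested gene, each over 9 points.

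Other genes of the cohesin cycle were also called, and the shares of all genes given above for each comparison are their background too. Of 15 such genes 12 passed the filter on low values. With BDNF at 1, 6 and 10 h, 2, 0 and 0 rose and 0, 6 and 7 fell. With KCl 3, 3 and 2 rose and 4, 8 and 7 fell. The falls at 6 h and 10 h stand against 21.1% and 19.5% of all genes with BDNF and 33.1% and 28.2% with KCl. Mau2, the partner of Nipbl in the loader, averaged 1691 normalised counts in controls and 2382 at KCl 6 h, a rise of 0.49 ± 0.06 (adjusted p 2.4e-07), and rose by 0.30 at KCl 10 h, while it fell by 0.20 at BDNF 6 h (adjusted p 0.011). At the same time point Nipbl was at -0.06 (KCl 6 h, adjusted p 0.48). BDNF against KCl was -0.69 ± 0.07 for Mau2 at 6 h (adjusted p 6.5e-08). Stag3, the meiotic STAG subunit, averaged 341 in controls and 107.5 at KCl 6 h, a fall of 1.69 on the log2 scale (SE 0.15, adjusted p 9.6e-09). Esco2, which acetylates Smc3 in S phase, fell by 1.06 at KCl 10 h (adjusted p 3.0e-05) and Cdca5, the sororin that protects cohesin from Wapl in dividing cells, by 0.86 (adjusted p 0.00020). Esco1, the acetylase of non-dividing cells, rose by 0.35 at BDNF 1 h (adjusted p 0.028) and by 0.32 at KCl 6 h (adjusted p 0.026). Hdac8, which removes that acetyl group, rose by 0.43 at KCl 1 h (adjusted p 0.036) and fell by 0.40 at KCl 6 h (adjusted p 0.040) and by 0.48 at BDNF 6 h (adjusted p 0.027). The germline forms Smc1b, Rec8 and Rad21l were below the filter, with control means of 4.85, 0.96 and 0.25.

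Among 13 CTCF partners and co-factors 12 passed the filter, with 4 up and 2 down, 2 and 4, and 2 and 3 at 1, 6 and 10 h of BDNF, and 7 and 2, 8 and 3, and 6 and 3 with KCl. Of all genes, 21.3%, 22.1% and 21.1% rose with BDNF and 26.5%, 33.4% and 29.0% with KCl. Zfp143, a zinc-finger factor found at promoters and loop anchors, averaged 176 in controls, 525 at KCl 6 h and 322 at KCl 10 h, a rise of 1.58 ± 0.11 at 6 h (adjusted p 1.1e-10) and 0.86 at 10 h. At KCl 1 h it was 0.27 lower (adjusted p 0.047), and with BDNF none of its differences passed (-0.17, 0.12 and -0.16). Yy1, a factor of enhancer-promoter contacts, averaged 873 in controls and rose by 0.50 ± 0.06 at BDNF 1 h (adjusted p 6.7e-07) and by 0.73 ± 0.06 at KCl 1 h (adjusted p 1.0e-09). It stayed above controls with KCl at 6 h (0.31, adjusted p 9.7e-05) and 10 h (adjusted p 0.0014) and did not pass at BDNF 6 h or 10 h. Adnp, which competes with CTCF for some sites, rose by 1.57 ± 0.18 at KCl 1 h (adjusted p 3.0e-07) from a control mean of 46.6. Ctcfl, the germline relative of Ctcf, was below the filter with at most 3.21 in any library.

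The related SMC complexes were counted in the same way. All 16 genes of condensin and SMC5/6 passed the filter, and 1, 1 and 2 rose and 2, 8 and 7 fell with BDNF at 1, 6 and 10 h, against 1, 2 and 2 rising and 8, 12 and 11 falling with KCl. Of all genes, 19.0%, 21.1% and 19.5% fell with BDNF and 28.2%, 33.1% and 28.2% with KCl. Nsmce1, a subunit of SMC5/6, fell by 0.98 at KCl 6 h (adjusted p 4.2e-07) and Slf1, which brings SMC5/6 to damaged DNA, by 0.86 at BDNF 1 h (adjusted p 1.3e-07). Proliferation genes moved with the same groups. Of the 10, 0 rose and 5 and 6 fell at BDNF 6 h and 10 h, and 0 rose and 7 and 10 fell at KCl 6 h and 10 h, with 1 up and 0 down at BDNF 1 h and 1 up and 4 down at KCl 1 h. Mcm2 and Mcm5, parts of the replication helicase, fell by 1.21 and 1.11 at KCl 6 h (adjusted p 7.7e-10 and 2.8e-08). The summed count of the 10 was 4834 to 5701 at KCl 6 h and 5049 to 5312 at KCl 10 h, below the lowest control of 7004. Astrocyte markers moved too, with 5 of 5 tested lower at KCl 6 h and 10 h and summed counts of 7736 to 8937 and 8429 to 8883, below the lowest control of 10033. Gfap and Aqp4 fell by 1.22 and 1.17 at KCl 6 h (adjusted p 4.9e-05 and 8.7e-05). The part of these cells in the falls of Pds5b, Pds5a and Smc1a was not tested.

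The remaining marker lists gave fewer calls that held one direction. In the comparisons with controls 21.1 to 33.4% of all genes rose and 19.0 to 33.1% fell. Of 9 neuron markers 4 to 6 rose and 0 to 2 fell in each. At KCl 6 h 6 rose and 2 fell, and the largest changes were Gad1, the GABA-synthesising enzyme (0.93), and the synaptic Snap25 (0.76). Of 5 oligodendrocyte-lineage markers 0 rose and 3 fell at KCl 1 h, led by Sox10 (-2.41, adjusted p 3.5e-09). At BDNF 6 h 1 of them rose, Mbp (1.24), and 2 fell. Of 4 microglial markers tested 0 to 1 rose and 0 to 1 fell, with Cx3cr1 at -2.12 at KCl 6 h and Aif1 at -0.83 at BDNF 6 h. Of 2 endothelial markers tested 1 rose at KCl 1 h, Pecam1 (1.11), and 1 at KCl 10 h. Of 5 fibroblast and mural markers 3 rose at KCl 1 h and 3 fell at KCl 10 h, with Col1a1 at -0.43, and Pdgfrb was at -0.40 at BDNF 10 h.

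Chromatin at the 10 genes was then read from ATAC counts. In all, 18 peaks lay in them, 14 over an annotated start (1000 bp before to 100 bp after) and 4 in introns, and all were deep enough to be tested. The promoter peaks ranked between the 51.3 and 99.4 percentile of all peaks by mean count. Over the 18 (edgeR), 1 was called at BDNF 1 h, 0 at 6 h and 0 at 10 h, against 17.3%, 10.6% and 9.36% of all peaks. With KCl 2 were called at 1 h, 1 at 6 h and 3 at 10 h, against 8.34%, 7.49% and 7.87%. Between stimuli 2 were called at 1 h and 0 later, against 14.9%, 3.63% and 1.99%.

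Smc1a held the clearest of these. Its promoter peak (chrX:152015922-152017063), which spans the stretch shown above, had scaled counts of 114.6 to 151.6 in the 6 controls. The BDNF pairs had 187 and 199.99 (1 h), 145.6 and 174 (6 h) and 148.6 and 121.8 (10 h). With KCl it had 134 and 116 at 1 h and 110.5 to 126.9 later. Only at BDNF 1 h did both libraries lie above every control. The peak rose by 0.61 ± 0.14 (log2, SE) at BDNF 1 h (edgeR quasi-likelihood adjusted p 0.00038) and was 0.64 ± 0.17 higher than with KCl at 1 h (adjusted p 0.0072, but 0.19 without KCl 1 h sample B). Smc1a mRNA at BDNF 1 h differed from controls by 0.04 ± 0.07 (limma adjusted p 0.71), and at KCl 6 h, where that mRNA fell, the peak had 119.4 and 117.8 counts, a difference of -0.09 ± 0.17.

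The peak at the start of Stag2 (chrX:42148762-42149335) went the other way with KCl. It had 144.1 to 175.7 scaled counts in controls, 123.9 and 122.2 at KCl 1 h, 121.1 and 103.8 at KCl 6 h, and 111.6 and 91.9 at KCl 10 h. All 6 KCl libraries lay below every control, as did the pair at BDNF 6 h (126.5 and 141.3, adjusted p 0.52). The differences were -0.34 ± 0.15 at 1 h (adjusted p 0.17), -0.43 ± 0.17 at 6 h (adjusted p 0.12) and -0.61 ± 0.16 at 10 h (adjusted p 0.0086), of which the last passed, though not without KCl 10 h sample B (-0.47, adjusted p 0.28) and not against the controls of the same time alone (adjusted p 0.11). Under TMM scaling all 3 passed (-0.39, -0.54 and -0.76). Stag2 mRNA at KCl 10 h differed by -0.15 ± 0.07 and did not pass (adjusted p 0.10), but was -0.18 (adjusted p 0.036) without control 1 h sample A.

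At Pds5a the promoter peak (chr5:65697378-65698601) had 229.2 to 309.9 scaled counts in controls, 199.9 and 235.8 at KCl 1 h and 326 and 352 at KCl 6 h. It fell by 0.35 at KCl 1 h (SE 0.11, adjusted p 0.044, and 0.47 without KCl 1 h sample A), when Pds5a mRNA was 0.12 ± 0.08 above controls, and was 0.62 ± 0.14 higher at KCl 6 h than at 1 h (adjusted p 0.041), when that mRNA was 0.48 lower. This was 1 of 2 member peaks called between those times, where 0.286% were called among all peaks. At Pds5b the promoter peak (chr5:150673360-150674423) had 239.8 to 320.1 in controls and 387.5 and 327.5 at KCl 10 h, a rise of 0.34 ± 0.11 (adjusted p 0.050) beside the fall of its mRNA. The Stag1 promoter peak, at an annotated start within the gene (chr9:100642785-100644394), had 438 to 524 in controls, 583 and 629 at KCl 6 h and 609 and 577 at KCl 10 h, with rises of 0.31 ± 0.09 (adjusted p 0.026) and 0.29 ± 0.09 (adjusted p 0.030). These last 3 rises depended on the scaling, since under TMM scaling they were 0.10, 0.06 and -0.01 and under DESeq2 size factors 0.05, 0.02 and -0.05, none of them called. Each was also lost without a single library, for Stag1 either KCl library of that time (adjusted p 0.11 to 0.32) and for Pds5b KCl 10 h sample A (adjusted p 0.59) or control 10 h sample B (adjusted p 0.11). The calls of Smc1a at BDNF 1 h and Stag2 at KCl 10 h held under both scalings (0.54 and 0.53, and -0.76 and -0.81). With LOESS scaling the Pds5b peak at KCl 1 h was at -0.22 and was not called (edgeR adjusted p 0.25). It was called lower there under TMM scaling (-0.38, adjusted p 0.020) and under DESeq2 size factors (-0.40, adjusted p 0.014).

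In the introns of Stag1, a peak at chr9:100613584-100613943 had 36.2 and 39.5 scaled counts at KCl 1 h against 8.79 to 34.4 in controls, a rise of 1.00 ± 0.35 (adjusted p 0.080, and 0.14 to 0.40 without control 1 h sample A, control 10 h sample A or B, or KCl 1 h sample A or B), and was lower by 6 h (9.83 and 5.07). A second at chr9:100606088-100606508 was 0.96 ± 0.38 higher with BDNF than with KCl at 1 h (adjusted p 0.085, and 0.12 to 0.42 without any 1 of the 4 libraries), with 55.3 and 41.3 counts against 17.8 and 30.3. With LOESS scaling no promoter peak of Ctcf, Rad21, Smc3, Nipbl or Wapl was called in any comparison. Under TMM scaling the Rad21 peak was lower at all 3 KCl times (-0.39, -0.43 and -0.33, adjusted p 0.0081, 0.0070 and 0.027), where LOESS scaling gave -0.21, -0.22 and -0.08. The Rad21 libraries had 313 and 279 (1 h), 283 and 311 (6 h) and 327 and 319 (10 h) scaled counts. Under TMM scaling the Ctcf peak was also called lower at BDNF 1 h (-0.30, adjusted p 0.065), BDNF 10 h (-0.35, adjusted p 0.073) and KCl 1 h (-0.31, adjusted p 0.080), and the Smc3 peak at BDNF 10 h (-0.28, adjusted p 0.079), KCl 1 h (-0.26, adjusted p 0.088) and KCl 10 h (-0.31, adjusted p 0.033). Under DESeq2 size factors the larger Nipbl peak was called lower at KCl 10 h (-0.36, adjusted p 0.057). The peaks of Ctcf (chr8:105635964-105637453, 221.4 to 276 in controls), Rad21 (chr15:51991050-51992145, 294 to 365), Smc3 (chr19:53599840-53601001, 366 to 413) and Wapl (chr14:34673380-34674377, 322 to 379.5) each span the start. Nipbl had a pair, chr15:8443687-8444465 (64.3 to 88.1) and chr15:8444588-8445631 (194.7 to 211.4). Stag2 had 3 more within alternative starts, chrX:42150416-42150568 (19.6 to 56.8), chrX:42150692-42150906 (19.2 to 43.4) and chrX:42152097-42152324 (34.9 to 69.9).

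**Figure D4:**
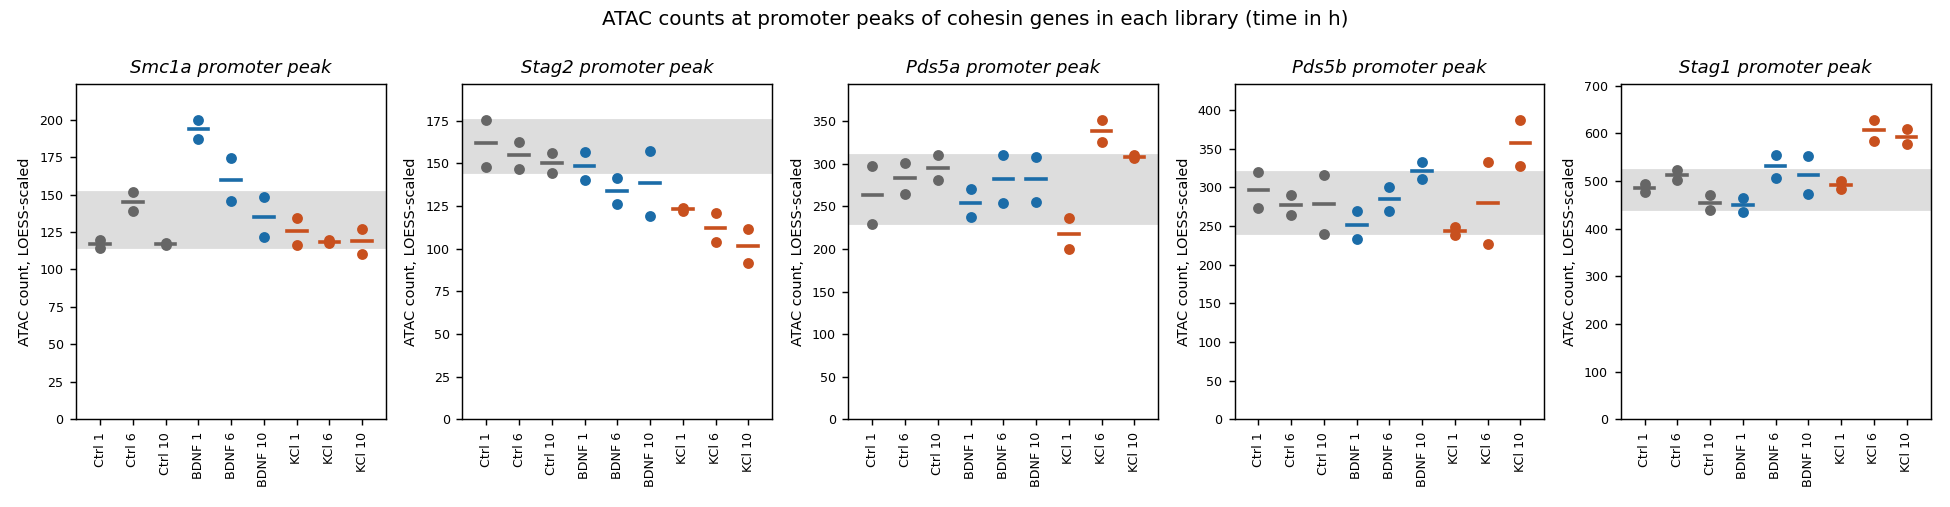
ATAC count after LOESS scaling (y axis, linear from 0) at the promoter peaks of 5 genes in each of the 18 ATAC libraries by group (x axis, hours of stimulation), with group means as bars and the range of the 6 controls in grey. Smc1a stands above the controls at BDNF 1 h (187 and 199.99) and Stag2 below them in all 6 KCl libraries.

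The last readout was accessibility where CTCF could bind. The core of the CTCF motif (CCA, any 2 bases, AG, any 2 bases, GGC, on either strand) was found in 4784 of the 56383 peaks tested, or 8.49%. The match is to letters, not to measured binding, and peaks of 1 library are not replicates, so no test was made. Peaks with the core and all peaks were alike in place, GC content and width, with 26.6% and 27.1% in promoter windows, a median GC content of 51.1% and 49.0% and a median width of 348 and 375 bp. Their mean counts were not compared.

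The shares called among peaks with the core were as follows. With BDNF 3.93% rose at 1 h, 1.94% at 6 h and 1.42% at 10 h, against 12.5%, 8.88% and 7.46% of all peaks. With KCl 1.84%, 1.44% and 1.57% rose, against 5.29%, 5.44% and 5.91%. As for falls, with BDNF 3.24%, 0.92% and 1.71% fell, against 4.78%, 1.75% and 1.90% of all peaks. With KCl 5.87% fell at 1 h, against 3.05%, and 2.01% and 2.26% later, against 2.06% and 1.96%. At KCl 1 h 281 peaks with the core fell and 88 rose, while among all peaks 1720 fell and 2985 rose. Ctcf mRNA was also lowest in that group, and a link between this mRNA and these peaks was not tested. The median log2 fold change at KCl 1 h was -0.20 over peaks with the core and 0.01 over all peaks, and at the later KCl times -0.10 and -0.11 against -0.0022 and -0.0052 over all peaks.

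Shares under other scalings were also taken. At KCl 1 h 7.76% of peaks with the core fell and 1.80% rose under TMM scaling, against 4.66% and 6.34% of all peaks, and 8.72% and 1.65% under DESeq2 size factors, against 5.23% and 6.02%. In the stricter form of the core that begins CCAC (2180 peaks) 6.28% fell and 0.55% rose. Peaks with this form were less often in promoter windows than all peaks (19.3% against 27.1%) and were narrower (median 311 against 375 bp). Outside promoter windows 6.04% of peaks with the core fell and 0.94% rose, against 2.82% and 5.25% of all such peaks, and within them 5.42% fell and 4.32% rose, against 3.66% and 5.42%. The split by promoter window was added after the data were seen.

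**Figure D5:**
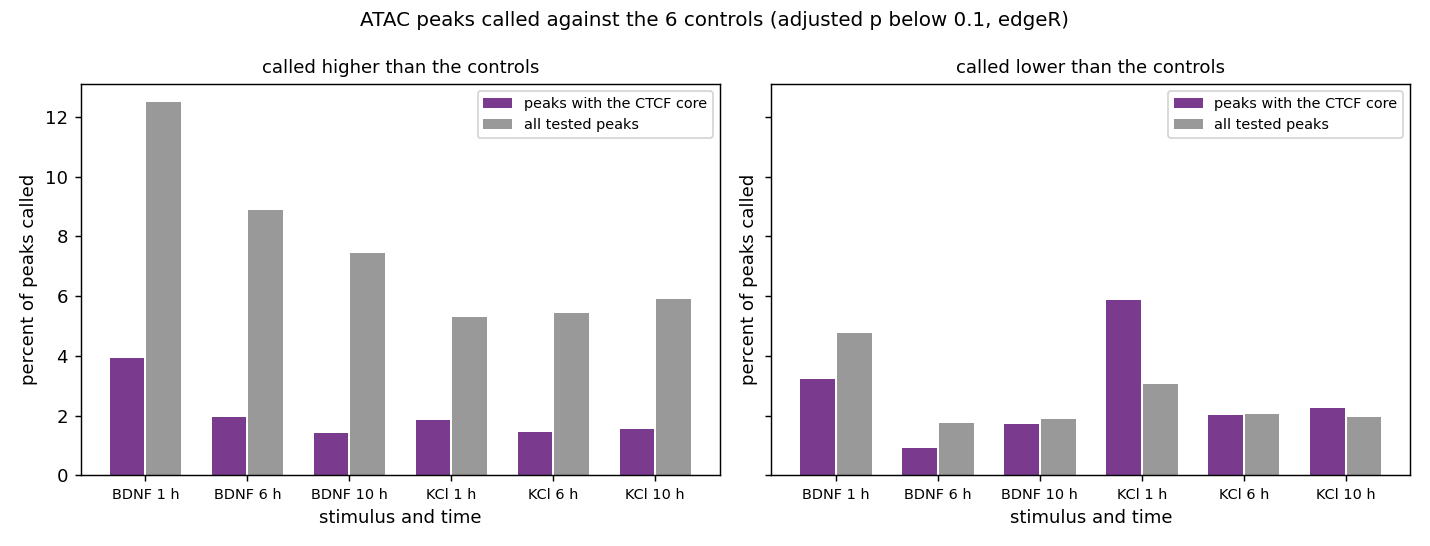
Percent of ATAC peaks called higher (left) or lower (right) than the 6 controls (y axis, from 0) at each stimulus and time (x axis), for the 4784 peaks that hold the CTCF core and for all 56383 peaks tested. In all 6 comparisons the share called higher is smaller with the core than over all peaks, and at KCl 1 h the share called lower is larger (5.87% against 3.05%).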

How the data were processed

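RNA-seq and ATAC-seq were analysed from 18 samples each, 2 in each of 9 groups. For RNA the authors aligned reads with TopHat2 to mm10 with GENCODE M16 and deposited a signal, counts divided by library size factors, for 26709 genes. Whole reads were recovered from all values (100%, tolerance 0.01). The counting program and its strand setting are not given in the sources used here. For ATAC the authors aligned with Bowtie2, called peaks with MACS2 per sample, and deposited read counts for peaks shared by 2 or more samples. Columns holding the authors' own fold changes and p-values were not used, except a symbol column.

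Genes with a mean of at least 10 (16209) were tested with limma 3.58.1 on log2(value + 1), trended and robust, so that fold changes of low genes are understated. ATAC peaks with a mean of at least 10 (56383) were tested with edgeR 4.0.16 quasi-likelihood with LOESS offsets (span 0.3). Each fit had 7 levels, with all 6 controls as 1 level as in the study. Benjamini-Hochberg adjustment ran over all genes or peaks, and a call was an adjusted p below 0.1. All tests were two-sided. Ratios had exact permutation tests (scipy 1.17.1). RNA depth was 8.51 to 36.7 M reads and ATAC depth 1.24 to 6.24 M reads. Replicates were compared and none was a duplicate. The letters A and B name the columns of a group. They were not used to pair samples in the main fits. Deviations between the letters correlated at -0.31 to 0.42 over 36 pairs of groups (median 0.065, 13 above 0.1), which does not settle whether the letters mark pairs.

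The members and gene lists were chosen with earlier results of these data known. All 10 members were named in every comparison, with the 2 largest calls of each other list, 8 genes named always, the nearest gene in course to each member, and the promoter peaks. Scripts were tested on simulated data. Alternatives were other pseudocounts, filters, scalings, tools (edgeR and DESeq2 1.42.0), thresholds, controls of the same time, the letter as a block and each library left out.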

Additional observations from a re-analysis of the deposited data

Results flagged for a closer look

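Among the 6 controls, 3 of 28 genes and peaks examined had 1 sample far from the rest by Dixon's criterion (critical value 0.625), where chance gives about 1 in 20. The gap took 0.717 of the range for Ctcf and 0.729 for Pds5a, both with control 1 h sample A lowest (1324 and 468 normalised counts), and 0.711 for Stag1, with control 10 h sample B highest (825). Control 1 h sample A is also the deepest RNA library.

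The effects of BDNF and KCl differed by the direct test (BDNF minus KCl, log2) for several members. For mRNA at 1 h the differences were 0.18 for Ctcf, -0.19 for Rad21, -0.18 for Smc3 and -0.23 for Stag1. At 6 h they were -0.27 for Rad21, 0.42 for Smc1a, 0.30 for Pds5a and 0.57 for Pds5b. At 10 h they were -0.36 for Rad21 and 0.59 for Pds5b. In ATAC at 1 h the promoter peak of Smc1a differed by 0.64 and the first intronic peak of Stag1 by 0.96. The mRNA calls at 1 h, that of Pds5a at 6 h and both ATAC calls depended on single libraries, as given above.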

How the results depend on the processing

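Of the 22 calls of members against controls, 11 held under all 16 alternatives run for each: Nipbl at BDNF 1 h, Rad21 and Stag2 at BDNF 6 h, Rad21 at BDNF 10 h, Ctcf, Smc3 and Stag1 at KCl 1 h, Smc1a, Pds5a and Pds5b at KCl 6 h, and Pds5b at KCl 10 h. These 16 kept the threshold of 0.1, and of the 11 calls that of Stag1 at KCl 1 h (limma adjusted p 0.016) did not pass 0.01. At an adjusted p below 0.01, the members called numbered 1 at BDNF 1 h, 1 at BDNF 10 h, 2 at KCl 1 h, 1 at KCl 10 h, 0 for BDNF against KCl at 1 h and 2 from BDNF 1 h to 6 h. With no filter on low values the last 2 counts were 2 and 3, and edgeR and DESeq2 on whole reads gave 3 and 3 from BDNF 1 h to 6 h. Leaving out 1 library gave 1 to 3, 2 to 5 and 1 to 4 members called at 1, 6 and 10 h of BDNF, 3 to 5, 4 to 5 and 1 to 6 with KCl, 0 to 2, 3 to 6 and 2 to 2 for BDNF against KCl, 3 to 4 and 0 to 0 between BDNF times, and 4 to 5 and 1 to 2 between KCl times. With a replicate block, the counts against controls were 2, 3, 3, 5, 5 and 6, and 5, 4 and 2 for BDNF against KCl. It brought Stag2 (adjusted p 0.098) and, only just, Wapl at KCl 10 h and Wapl in BDNF against KCl at 1 h (adjusted p 0.085) under the threshold and changed no other call against controls or between stimuli. Without the samples of 1, 6 or 10 h, which left 4 against 4, the Pds5a to Pds5b difference was 0.34, 0.39 and 0.35 for KCl (adjusted p 0.13, 0.26 and 0.13) and -0.37, -0.27 and -0.17 for BDNF minus KCl (adjusted p 0.13, 0.26 and 0.17). Member peaks called under TMM, DESeq2 size factors, DESeq2 and limma numbered 3, 4, 3 and 2 at BDNF 1 h, 2, 2, 2 and 2 at BDNF 10 h, 7, 8, 7 and 4 at KCl 1 h, and 2, 2, 2 and 3 at KCl 6 h. DESeq2 and limma gave 1 and 1 for BDNF against KCl at 1 h, and limma gave 1 at KCl 10 h. At an adjusted p below 0.01 there were 0 at KCl 1 h, 0 at KCl 6 h, 1 at KCl 10 h and 1 for BDNF against KCl at 1 h, and with controls of the same time 0 at KCl 1 h and 1 at KCl 10 h. Leaving out 1 library gave 1 to 2, 0 to 1 and 0 to 0 peaks with BDNF, 0 to 2, 0 to 1 and 1 to 3 with KCl, and 0 to 1 for BDNF against KCl at 1 h. The Stag1 promoter peak reversed, to -0.24 (size factors) and -0.25 (DESeq2) at KCl 1 h and to -0.0052 (TMM), -0.049 (size factors) and -0.050 (DESeq2) at KCl 10 h. Of peaks with the CTCF core, the CCAC form had 2.16, 1.24 and 0.872% higher with BDNF and 0.55, 1.05 and 0.734% with KCl. Promoter windows had 3.38, 0.943 and 0.628% and 4.32, 2.28 and 2.12% higher, with 2.75% lower at BDNF 1 h, and outside them 0.94% were higher at KCl 1 h. The share lower under size factors was 3.89, 1.30 and 2.78% with BDNF and 8.72, 5.79 and 7.23% with KCl, where that of all peaks was 5.21, 1.99 and 2.94% and 5.23, 5.07 and 6.93%. Under TMM it was 7.76, 4.33 and 5.48% with KCl, and 4.66, 3.95 and 5.22% of all peaks. The cause of these changes was not tested. Counts were low at the 4 intronic peaks and 3 of the Stag2 peaks, which limits the precision there.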
